A study of Homo sapiens with 4 samples.

Results

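The 49 genes described here encode enzymes that write or remove methyl groups on histone lysines, with their close relatives. They comprised 25 writers (SET-domain methyltransferases, DOT1L and the core subunits of PRC2), 19 erasers and JmjC genes (the KDM demethylases, JARID2, JMJD1C, JMJD6 and JMJD8) and 5 PRDM genes. Members were given as a list of names, chosen with earlier results of these data known, out of 20123 protein-coding genes of GENCODE release 44 on GRCh37, and all 49 were found there. A tile, a window of 1000 bp, was counted for a member when it overlapped the gene span extended by 5 kb on each side.

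DNA methylation was measured by reduced representation bisulfite sequencing (RRBS) in SKOV3, an established human ovarian cancer cell line. The 4 libraries were 1 each of shC-S (control shRNA), LY75-R-S (labelled Ly75-OV-S, LY75 overexpressed in cells that also carry the LY75 shRNA), sh-LY75-S (LY75 suppressed by shRNA) and LY75-KO-S (LY75 inactivated by CRISPR). The first pair has the mesenchymal (M) phenotype and the second pair the epithelial (E) phenotype. Each clone was represented by 1 library, so no value has a replicate error and differences between clones cannot be told apart from differences between conditions. The authors deposited 3 tables of tiles, for shC-S vs. sh-LY75-S (the knockdown comparison), LY75-R-S vs. LY75-KO-S (called the knockout comparison) and a mix of both M clones against both E clones. For each tile they give the difference of the methylation percentages (in points) with a q-value, and they list only tiles that differed by at least 25 points with a q-value under 0.01. Levels per library and numbers of reads are not in the tables, so nothing is known of the depth behind a value. Whether all cells of a clone or a part of them differed cannot be told apart either, and neither the identity of the cells nor the loss of LY75 can be checked from differences in methylation.

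A positive difference is given here as higher methylation in the E clone. For the knockdown comparison this order follows the directions that the study states for its selected genes, JMJD8 among them. For the knockout comparison it rests on the mix: over the 4250 tiles listed in all tables, a least-squares fit gave the mix difference as 0.534 times that of the knockdown plus 0.435 times that of the knockout. The fit would look alike had the mix set LY75-R-S and LY75-KO-S the other way round, and then every sign of the knockout comparison would be reversed. The knockdown comparison and the mix share libraries, as do the knockout comparison and the mix.

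Histone methylation marks the state of chromatin by the lysine that carries it. Methylation of H3K4 marks active promoters and enhancers, that of H3K36 and H3K79 marks transcribed gene bodies, and that of H3K9 and H3K27 marks silenced chromatin. DNA methylation at a CpG-rich promoter usually goes with silencing of the gene, while in gene bodies it is common in transcribed genes. The PRDM proteins carry a PR domain related to the SET domain, and some of them act as transcription factors rather than as enzymes.

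MspI cuts at CCGG, so RRBS reads only short fragments between such sites. The 4 fragments below are a selection from member promoter tiles with large differences in the knockdown comparison that hold a fragment of 40 to 220 bp outside exons, 1 per gene. SETD1B and JMJD8 had large promoter differences but no such fragment outside exons. Sequences were read from hg19 on the plus strand, which is the coding strand of all 4 genes, and capitals mark CpGs. The fragments are predicted from the reference, and which of a tile's fragments gave reads is not in the tables.
PRDM6, chr5:122424376-122424453: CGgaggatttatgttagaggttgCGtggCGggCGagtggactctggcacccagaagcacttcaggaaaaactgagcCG
KDM2A, chr11:66885324-66885402: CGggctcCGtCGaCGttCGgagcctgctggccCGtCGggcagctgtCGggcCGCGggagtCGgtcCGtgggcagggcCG
SUZ12, chr17:30263867-30263974: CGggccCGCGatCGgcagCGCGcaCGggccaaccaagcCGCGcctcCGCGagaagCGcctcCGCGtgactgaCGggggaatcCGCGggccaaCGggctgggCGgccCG
PRDM2, chr1:14027019-14027132: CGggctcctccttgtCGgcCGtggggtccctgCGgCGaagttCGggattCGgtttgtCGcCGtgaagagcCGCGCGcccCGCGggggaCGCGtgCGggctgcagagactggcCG

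CpG content differed widely among these fragments. The SUZ12 fragment held 20 CpGs in 108 bases, the PRDM2 fragment 18 in 114 and the KDM2A fragment 13 in 79. The PRDM6 fragment held 5 CpGs in 78 bases.

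The knockdown comparison listed 191 tiles at 34 member genes (69.4% of the members, against 60.3% of all protein-coding genes). The knockout comparison listed 109 tiles at 29 members (59.2% against 46.8%), and the mix listed 82 tiles at 25 members (51.0% against 38.2%). The median absolute difference of the member tiles was 50.0 points in the knockdown comparison, 46.9 points in the knockout comparison and 38.2 points in the mix. Over all listed tiles it was 50.0, 41.9 and 36.9 points in the same order. The medians were thus equal in the knockdown comparison and somewhat higher at the members in the others. Tiles of 50 points or more made up 54.5, 45.0 and 32.9% of the member tiles, against 53.2, 37.5 and 21.6% of all listed tiles. The full 100 points are the largest difference possible. They were reached by 28 of 191 member tiles (knockdown), 12 of 109 (knockout) and 1 of 82 (mix). Over all listed tiles the counts were 6697 of 51243, 2651 of 28282 and 102 of 20986.

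**Figure D1:**
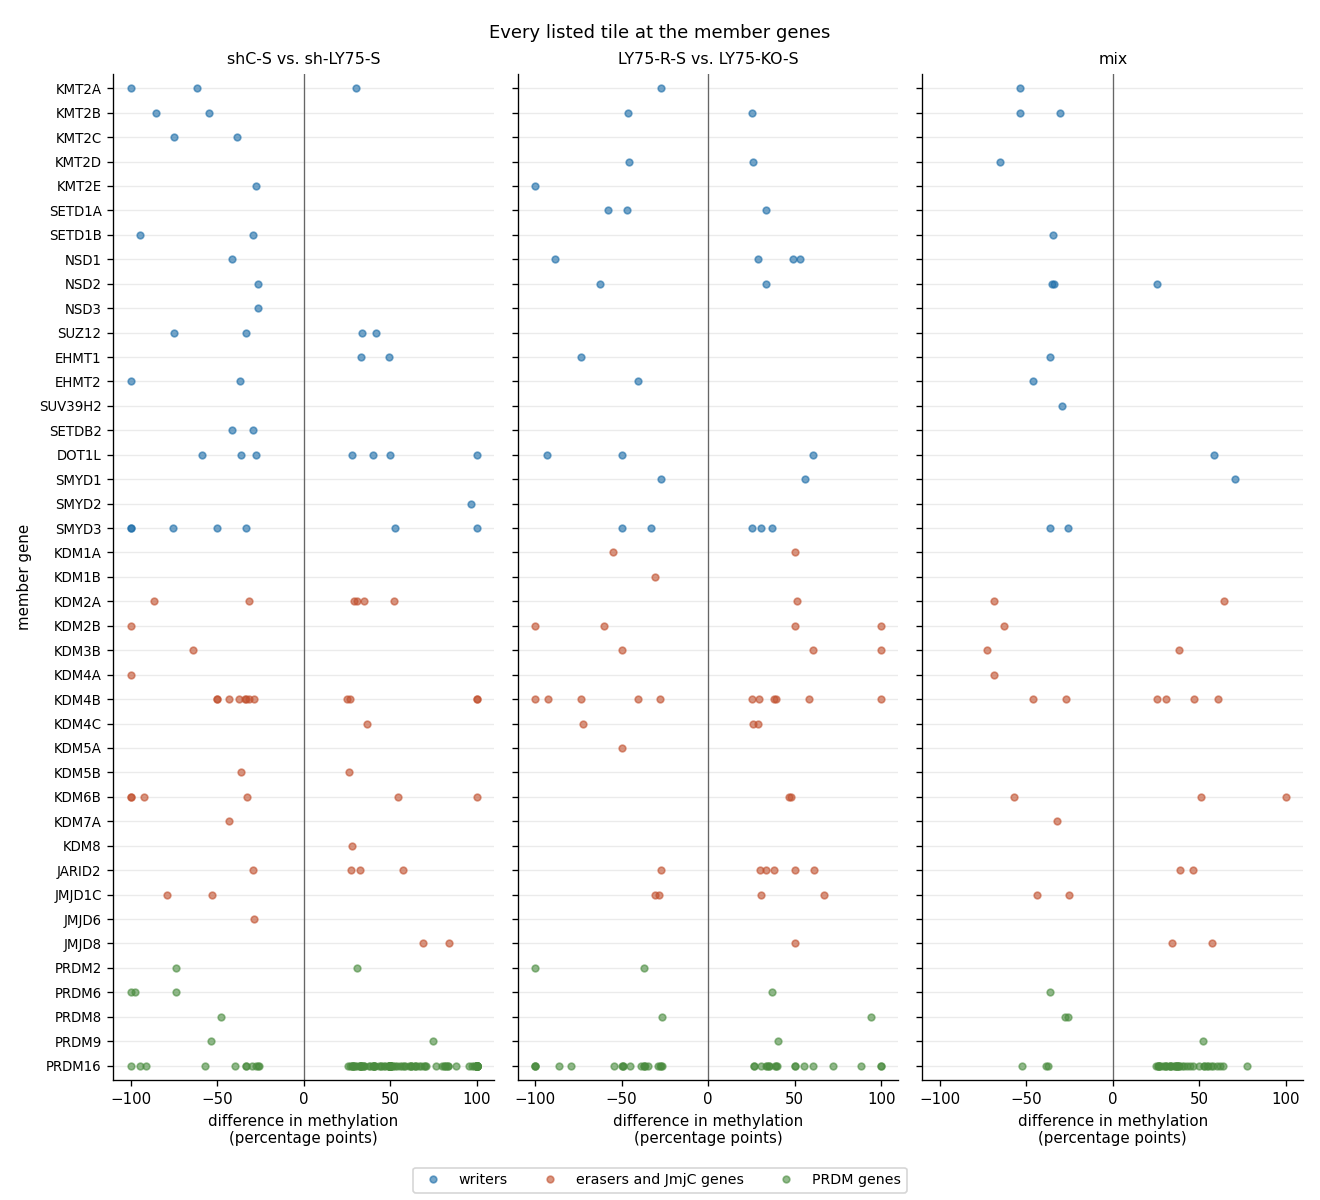
Each point is 1 listed tile, placed by its difference in methylation (x axis, percentage points, positive where the E clone was higher) and its member gene (y axis, the 41 members with a listed tile), with 1 panel per comparison. PRDM16 holds 104 of the 191 points of the knockdown comparison, nearly all positive, while most other members have fewer than 5 points on either side of 0.

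A single gene held much of the data. PRDM16, a zinc finger regulator of brown fat and haematopoietic stem cells, had 104 listed tiles in the knockdown comparison, 37 in the knockout comparison and 41 in the mix. In the knockdown comparison 93 of its 104 tiles were positive (89.4%), and in the mix 38 of 41 (92.7%). Over all members, 125 of 191 knockdown tiles were positive (65.4%), close to the 64.7% of all listed tiles. Without PRDM16, 32 of 87 were positive (36.8%), below that background. In the mix the members' share was 54 of 82 (65.9%, against 65.0% of all listed tiles), and without PRDM16 it was 16 of 41 (39.0%). The knockout comparison gave no such gap: 57 of 109 member tiles were positive (52.3%, against 54.7% of all), and 39 of 72 without it (54.2%). PRDM16 results are therefore kept apart from those of the other members.

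How often a tile was listed also depended on where MspI fragments can reach. Of 384553 tiles of the genome that such fragments reach with reads of 50 bp, 12.4% were listed in the knockdown comparison, 6.63% in the knockout comparison and 5.14% in the mix. At the members without PRDM16, 85 of 1392 reachable tiles were listed in the knockdown comparison (6.11%), 66 in the knockout comparison (4.74%) and 41 in the mix (2.95%), each below the genome. At PRDM16 the shares were 103 of 289 (35.6%), 37 (12.8%) and 41 (14.2%), each above it. Writers had lower shares than erasers in every table, at 5.06% against 6.70% in the knockdown comparison, 3.37% against 5.88% in the knockout comparison and 2.11% against 3.59% in the mix. A reachable tile need not have been covered in a library, and which of them were tested is unknown.

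A tile within 2 kb of a transcription start site (TSS) of any basic transcript of the gene was taken as a promoter tile. Members with a listed promoter tile numbered 14 in the knockdown comparison (28.6%, against 30.2% of all protein-coding genes), 6 in the knockout comparison (12.2% against 14.2%) and 5 in the mix (10.2% against 15.2%). The shares were near those of all genes in the single comparisons. Their direction was less even: of 18 promoter tiles in the knockdown comparison 3 were positive and 15 negative, a positive share of 16.7% (95% Wilson interval 5.84 to 39.2%) against 55.6% of all listed promoter tiles. All 3 positive tiles lay at JMJD8 and DOT1L. Of the knockout promoter tiles 4 of 8 were positive (against 53.3%), and in the mix 2 of 6 (against 55.4%). Wilson intervals here cover counting error only, and tiles next to each other may depend on each other.

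In gene bodies the picture was set by PRDM16. Of 154 body tiles of the knockdown comparison 114 were positive (74.0%, against 64.2% of all listed body tiles), but without PRDM16 the count was 23 of 53 (43.4%). The mix gave 49 of 69 (71.0% against 65.0%) and 12 of 29 without PRDM16 (41.4%). Among 95 knockout body tiles 52 were positive (54.7% against 55.7%), and 34 of 59 without PRDM16 (57.6%). Outside PRDM16, promoters thus had a lower positive share than bodies in the knockdown comparison, at 17.6% against 43.4%, with both below the background.

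**Figure D2:**
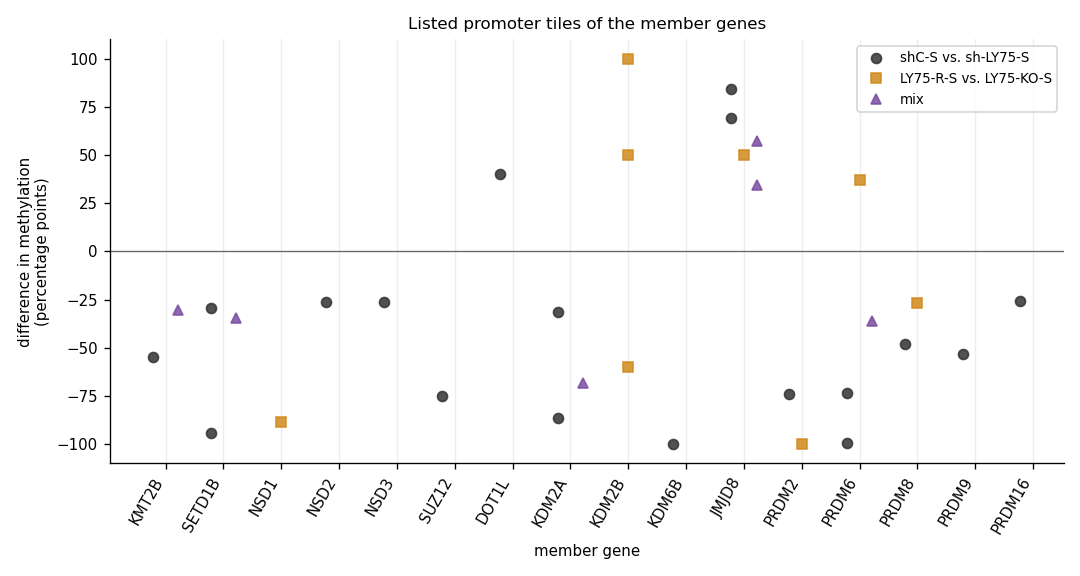
Every listed promoter tile of the members, placed by gene (x axis) and difference in methylation (y axis, percentage points, positive where the E clone was higher), with 1 symbol per comparison. JMJD8 is positive in all comparisons as signed here, KDM2B and PRDM6 have symbols on both sides of 0, and most of the knockdown symbols lie below 0.

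Among the promoters, JMJD8 had the largest positive differences in the knockdown comparison. JMJD8 encodes a JmjC-domain protein of the endoplasmic reticulum that is not known as a histone demethylase, and its gene is short, at chr16:731670-734528 on the minus strand. The tile over its TSS, chr16:734001-735000, held 114 CpGs and differed by 84.1 points in the knockdown comparison and by 57.3 points in the mix. The next tile, chr16:733001-734000 with 62 CpGs, differed by 69.3 and 34.5 points. Neither tile was listed in the knockout comparison. There, a different tile at -2.17 kb from the canonical TSS, chr16:736001-737000, was higher in the E clone by 50.0 points as signed here. The tile over the TSS and the knockout tile also overlap WDR24. The tile chr16:733001-734000 lies in the promoter of STUB1, so these values are not those of JMJD8 alone.

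KDM2A, an H3K36 demethylase whose CXXC domain binds unmethylated CpG islands, had the opposite pattern at its promoter. The tile chr11:66885001-66886000, upstream of the TSS and with 111 CpGs, was lower in the E clone by 86.6 points in the knockdown comparison and by 68.5 points in the mix. The tile over the TSS was lower by 31.4 points in the knockdown comparison. Further on, 4 tiles in the body and behind the end of KDM2A were higher in the E clone, by 29.2 to 52.3 points. Its only knockout tile, in an exon, was at 51.4 points. Its relative KDM2B, which brings a Polycomb complex to CpG islands, had no promoter tile in the knockdown comparison, where its 1 tile, in an intron 80.43 kb downstream, was at -100 points. Its knockout promoter tiles were 3: a tile at -1.57 kb from the canonical TSS with -60.0 points, and at an alternative TSS 44.43 to 45.43 kb inside the gene tiles with 100 and 50.0 points. The promoters of KDM2B thus went in opposite directions within 1 comparison.

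PRDM6, a PR domain protein of smooth muscle, differed almost completely at its promoter in the knockdown comparison: the tile over the TSS (chr5:122424001-122425000) was lower in sh-LY75-S by 99.5 points. The tile before it, chr5:122423001-122424000, was lower by 73.7 points in the knockdown comparison and by 36 points in the mix, and a tile in an exon 10.56 kb downstream was lower by 97.4 points. The only knockout tile was chr5:122422001-122423000, at -2.44 kb from the TSS, with 37 points. As signed here, PRDM6 was the 1 member whose promoter tiles had opposite signs in the single comparisons, but in different tiles. With the knockout signs turned, JMJD8, PRDM2 and PRDM8 would have opposite signs instead, and PRDM6 would not.

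The other PRDM promoters were also lower in sh-LY75-S. PRDM2 (RIZ), a tumour suppressor with a PR domain, had a promoter tile at -74.0 points in the knockdown comparison and a different one, at -2.18 kb from the TSS, with -100 points in the knockout comparison. PRDM9, the meiotic H3K4 methyltransferase that places recombination hotspots, had -53.3 points over its TSS and 74.8 points in an exon 9.78 kb downstream, both in the knockdown comparison. At PRDM8, a PR domain protein of the nervous system, the knockdown tile (-47.8 points) lay at an alternative TSS, -14.16 kb from the canonical one, and the knockout tile (-26.7 points) near the canonical TSS. PRDM16 itself had -25.7 points over its TSS, the reverse of its body. All 5 PRDM members thus had a promoter tile in the knockdown comparison (against 30.2% of all protein-coding genes), and none of the 6 such tiles was positive (against 55.6% of all listed promoter tiles). This did not hold for all PRDM genes outside the members: PRDM12 had 3 knockdown promoter tiles, all positive.

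Among the writers, the MLL and SET1 families with SETD7 (KMT2A to KMT2E, SETD1A, SETD1B and SETD7) contain the main H3K4 methyltransferases, while KMT2E is generally regarded as lacking this activity. In the knockdown comparison 5 of these 8 genes had a listed tile (against 60.3% of all protein-coding genes), and 1 of their 10 tiles was positive (against 64.7% of all listed tiles). None of their 5 mix tiles was positive (against 65.0%), and 3 of 9 knockout tiles were (against 54.7%). With the knockout signs turned that count would be 6 of 9, against 45.3%. SETD1B, a subunit of a COMPASS complex that trimethylates H3K4, had promoter tiles at -94.4 and -29.5 points in the knockdown comparison. In the mix the latter tile was at -34.5 points. The tile at -94.4 points lay 1357 bp from an alternative TSS and 2.59 kb downstream of the canonical one. MspI fragments of 40 to 220 bp reach 1 of its 23 CpGs. KMT2B had -54.7 points at -1.4 kb from its TSS in the knockdown comparison and -30.5 points in the mix, in a tile that also overlaps ZBTB32. KMT2C, an H3K4 monomethyltransferase of enhancers, had -75.0 and -38.6 points within the gene. Some of these tiles belong to neighbours: the KMT2A tile at -100 points lies 95.29 kb downstream of its TSS at the promoter of TMEM25, and the KMT2B tile at -85.1 points at that of IGFLR1.

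Tiles beyond the gene ends often sat at the promoter of another gene. Of 19 such flanking tiles in the knockdown comparison 11 lay within 2 kb of a TSS of another protein-coding gene. Of the 11, 10 were negative, while 55.6% of all listed promoter tiles were positive. Some of the 11 lay side by side or at the same promoters, at KMT2A (TMEM25), SUZ12 (LRRC37B) and KDM6B (CYB5D1 and NAA38). They are thus not 11 separate loci. In the knockout comparison 2 of 6 flanking tiles lay within 2 kb of such a TSS, and in the mix 4 of 7. How often flanking tiles of all protein-coding genes do so was not counted.

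The H3K36, H3K27 and H3K9 writers had fewer listed tiles than the H3K4 group in each comparison, but are also fewer genes. They number 4, 4 and 5, against 8 in the H3K4 group. NSD1, an H3K36 dimethyltransferase, had 3 body tiles at 29.0 to 53.3 points and a promoter tile at -88.5 points, all in the knockout comparison. The promoter tile lay 914 bp from an alternative TSS and 2.73 kb downstream of the canonical one. It held 6 CpGs, and MspI fragments of 40 to 220 bp reach 0 of them. In the knockdown comparison NSD1 had a flanking tile at -41.1 points. The NSD1 relatives NSD2 (at an alternative TSS) and NSD3 had 1 promoter tile each in the knockdown comparison. These were at -26.2 and -26.1 points, just inside the limit of 25 points. Among the PRC2 genes, which write H3K27 methylation, only SUZ12 had listed tiles, 4 of them and all in the knockdown comparison. The SUZ12 promoter tile next to the TSS, chr17:30263001-30264000 with 56 CpGs, was at -74.8 points, and a tile at -2.53 kb had 41.9 points. SUZ12 has a partial copy, SUZ12P1, on the same chromosome, and reads that fit both would be hard to assign. Of the H3K9 writers, EHMT2 (G9a) had an exon tile at -100 points in the knockdown comparison and -46.0 points in the mix. Its partner EHMT1 (GLP) had an intron tile at -73.5 points in the knockout comparison and -36.5 points in the mix, while its 2 knockdown tiles were at 33.0 and 49.5 points.

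DOT1L, the H3K79 methyltransferase, and SMYD3 had the most tiles among the writers, with 7 each in the knockdown comparison. DOT1L ran both ways, with 4 positive tiles up to 100 points and 3 negative tiles down to -59.0 points, and its promoter tile was at 40 points. SMYD3, a lysine methyltransferase of histone and other proteins that spans 758 kb, had 2 positive and 5 negative tiles, with -100 points in a tile at -3.92 kb from its TSS and in another 16.08 kb downstream. SMYD2 had a single tile, at 96.7 points in the knockdown comparison, and MspI fragments of 40 to 220 bp reach 0 of its 6 CpGs.

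Erasers of H3K9 held the most tiles of their class, but were also its largest group, with 7 of the 19 genes. KDM4B had 12 tiles in the knockdown comparison, 11 in the knockout comparison and 6 in the mix, all in the gene body. Their signs were 4 positive and 8 negative in the knockdown comparison, 6 and 5 in the knockout comparison, and 4 and 2 in the mix, so KDM4B had no single direction. KDM4B has 132 reachable tiles, and 9.09% of them were listed in the knockdown comparison (against 12.4% over the genome). The shares were 8.33% in the knockout comparison (against 6.63%) and 4.55% in the mix (against 5.14%). The KDM4B relative KDM4A had 1 intron tile, at -100 points in the knockdown comparison and -68.5 points in the mix. In KDM3B, exon tiles were at 100 and 60.8 points in the knockout comparison. The tile at 100 points held 12 CpGs, and MspI fragments of 40 to 220 bp reach 0 of them. A flanking KDM3B tile at the promoter of REEP2 was at -64.0, -50.0 and -72.6 points in the knockdown comparison, the knockout comparison and the mix.

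KDM6B, the H3K27 demethylase, had 6 knockdown tiles over a gene of 20.6 kb, and 24.0% of its reachable tiles were listed. The promoter tile at -100 points lay 1222 bp from an alternative TSS and 3.97 kb downstream of the canonical one, and held 12 CpGs. A flanking tile upstream was at 54.8, 46.9 and 51.2 points in the knockdown comparison, the knockout comparison and the mix, and also overlaps DNAH2. An exon tile 13.97 kb downstream was at 100, 47.8 and 100 points in the same order. Tiles behind the gene end at -100 and -92.1 points in the knockdown comparison lay at the promoters of CYB5D1, NAA38 and TMEM88.

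JARID2, a cofactor of PRC2 with a JmjC domain but no demethylase activity, had 3 positive tiles of 4 in the knockdown comparison, 5 of 6 in the knockout comparison and 2 of 2 in the mix. With the knockout signs turned, 1 of the 6 would be positive. An exon tile 258.2 kb downstream of its TSS was at 57.6, 33.3 and 46.1 points in the knockdown comparison, the knockout comparison and the mix. JMJD1C, of the KDM3 family, had an intron tile lower in all of them, at -53.1, -28.4 and -43.8 points. The H3K4 erasers KDM1A (LSD1), KDM1B (LSD2) and KDM5A had tiles in the knockout comparison alone among the 3 tables, between -55.0 and 50.0 points, and KDM5B in the knockdown comparison alone, at 26.4 and -36.4 points. MspI fragments of 40 to 220 bp reach 0 of the 16 CpGs of the KDM1A tile at 50.0 points.

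**Figure D3:**
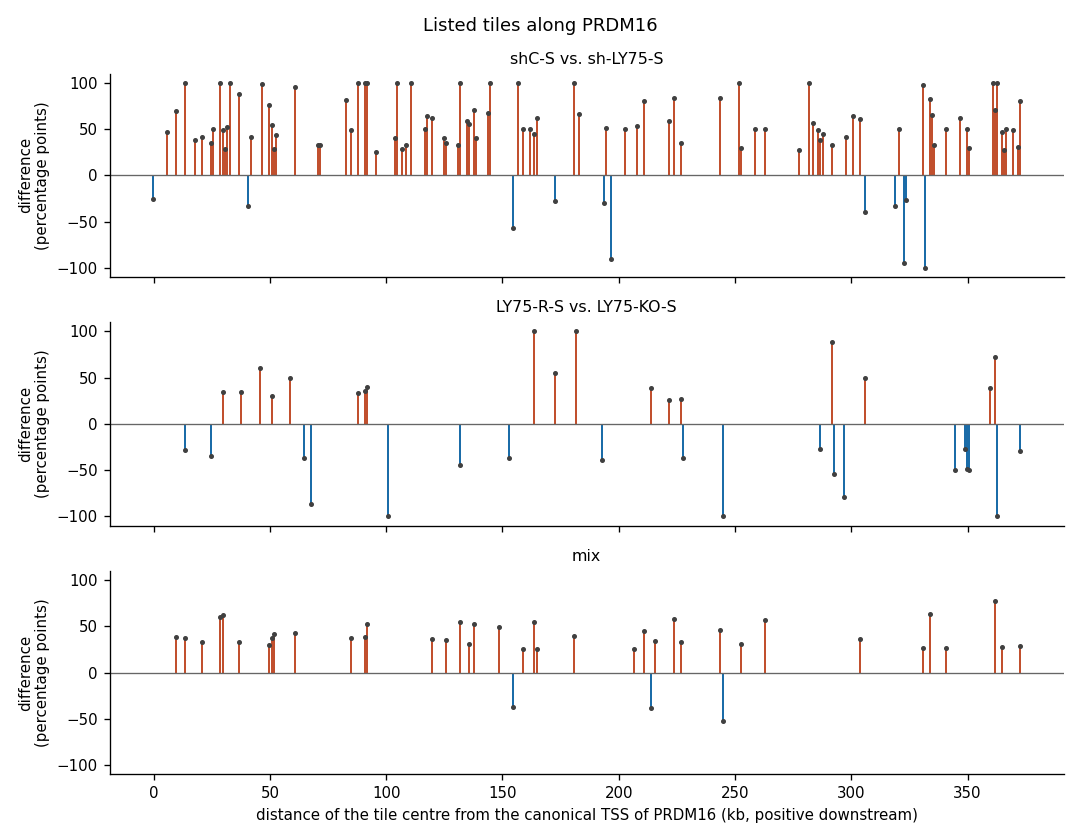
Listed tiles of PRDM16, placed by the distance of the tile centre from the canonical TSS (x axis, kb, positive downstream) with the difference in methylation as a vertical line (y axis, percentage points, red where the E clone was higher and blue where it was lower), 1 panel per comparison. Knockdown tiles are positive along the gene with 11 exceptions, while knockout tiles lie on both sides, 18 above and 19 below 0.

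PRDM16 spans 369 kb near the end of the short arm of chromosome 1 (chr1:2985732-3355185, plus strand). Its knockdown tiles were spread over the gene: within the 4 equal parts of the span, from the TSS to the gene end, 27 of 29, 26 of 28, 12 of 14 and 26 of 31 were positive, with medians of 50.0, 53.0, 50.5 and 49.1 points. Tiles at 100 points numbered 6, 4, 1 and 4 there, counting both directions. In the knockdown comparison 30 of 33 adjacent pairs of listed tiles shared a sign, and the longest run of adjacent tiles was 5. With 93 of the 104 tiles positive, most pairs would share a sign wherever they lay. In the knockout comparison 3 of 6 adjacent pairs shared a sign, and in the mix 5 of 6. Most of the knockdown tiles lay outside exons.

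The knockout comparison gave another pattern along PRDM16. The positive tiles were 8 of 12, 3 of 6, 3 of 6 and 4 of 12 in the same parts, with medians of 33.7, 9.29, -5.09 and -38.2 points. The mix followed the knockdown, with 13 of 13, 10 of 11, 8 of 10 and 6 of 6 positive. With few knockout tiles per part, the order of these shares has no error estimate.

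The surroundings of PRDM16 shared part of its knockdown pattern. Within 1 Mb on each side of the extended gene, 232 of 1003 reachable tiles were listed in the knockdown comparison (23.1%, against 35.6% at PRDM16), 10.6% in the knockout comparison (against 12.8%) and 10.4% in the mix (against 14.2%). The positive shares there were 79.7%, 55.6% and 77.4%. Many listed tiles were also found at other long genes: counted in the same way, 2 further protein-coding genes had as many tiles as PRDM16 or more in the knockdown comparison, 3 in the knockout comparison and 1 in the mix. PTPRN2 had 116 tiles in the knockdown comparison.

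**Figure D4:**
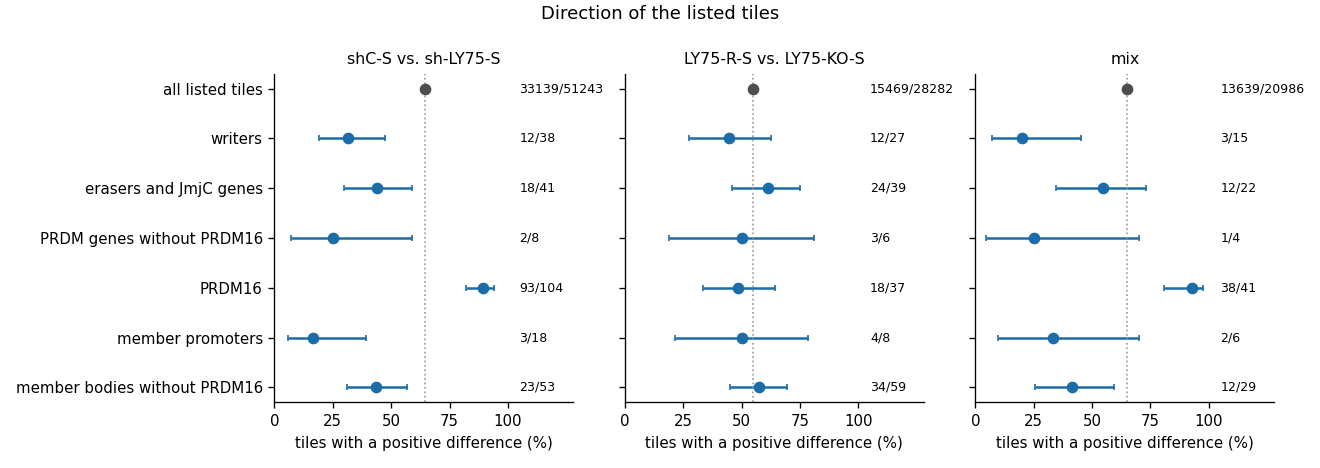
Percent of listed tiles with a positive difference (x axis) for all listed tiles and for groups of member tiles (y axis), with 95% Wilson intervals as bars, the counts of positive and listed tiles at the right, and the share of all listed tiles as a dotted line. PRDM16 lies right of the line in the knockdown comparison and the mix, and the writers lie left of it in these panels and, as signed here, in the knockout panel. With the knockout signs turned, the writers would lie right of it, at 55.6% against 45.3%.

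By class, 12 of 38 writer tiles were positive in the knockdown comparison (31.6%, interval 19.1 to 47.5%), 18 of 41 eraser tiles (43.9%, 29.9 to 59.0%) and 95 of 112 PRDM tiles (84.8%). The PRDM share belonged to PRDM16, since the other 4 genes had 2 of 8. In the knockout comparison the counts were 12 of 27 (44.4%), 24 of 39 (61.5%) and 21 of 43 (48.8%), and in the mix 3 of 15 (20%), 12 of 22 (54.5%) and 39 of 45 (86.7%). Erasers had a higher positive share than writers in the knockdown comparison and the mix, and in the knockout comparison as signed here. With the knockout signs turned, its shares would be 15 of 39 for erasers (38.5%) and 15 of 27 for writers (55.6%), against 45.3% of all listed tiles. The intervals of both classes overlapped in each table: in the knockout comparison they ran from 27.6 to 62.7% for writers and from 45.9 to 75.1% for erasers, and in the mix from 7.05 to 45.2% and from 34.7 to 73.1%.

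The knockdown and knockout comparisons use different libraries but not unrelated clones. LY75-R-S was made from sh-LY75-S cells, so the E clone of the former is the parent of the M clone of the latter, and a difference that LY75-R-S inherited would appear with opposite signs in the pair. Its part in the counts of directions was not tested. They listed 32 member tiles in common, 16.8% of the 191 and 29.4% of the 109. Over the genome they shared 8345 tiles, 16.3% and 29.5% of each table. The direction was the same for 18 of the 32 (56.2%), against 52.6% of all shared tiles, so members were close to the background. Outside PRDM16 it was the same for 8 of 12, and at PRDM16 for 10 of 20. Erasers had 7 of 9 and writers 1 of 3. With the knockout signs turned, 14 of the 32 would have the same direction (43.8%), against 47.4% of all shared tiles, and 2 of 9 at the erasers. No promoter tile of a member was listed in both.

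**Figure D5:**
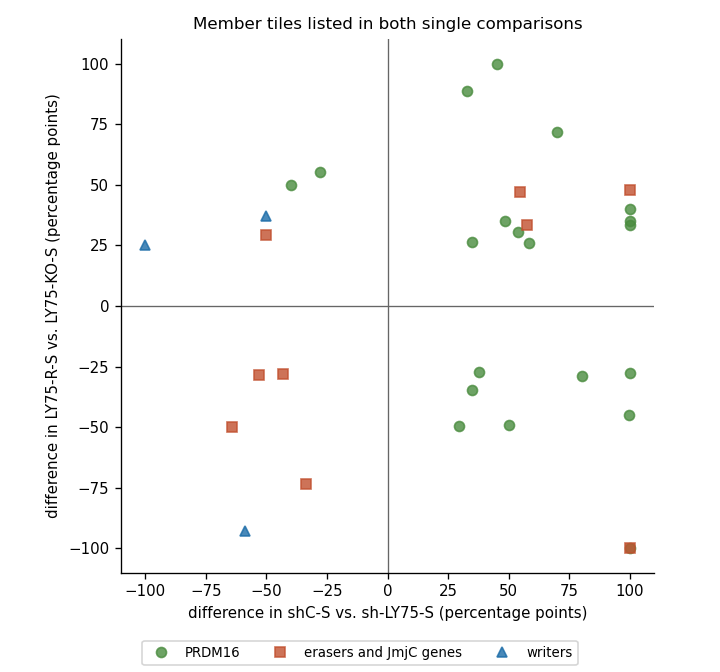
The 32 member tiles listed in both single comparisons, placed by their knockdown difference (x axis) and knockout difference (y axis), both in percentage points, with a colour and symbol per class. Same-direction tiles lie in the upper right and lower left (18 tiles), and 1 tile each of PRDM16 and KDM4B coincide at 100 and -100 points in the lower right.

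Tiles with the same sign in all comparisons were 13 of the 17 that all of them listed, against 3510 of 4250 over the genome. The mix holds the libraries of both single comparisons, so its signs are not independent of theirs. At PRDM16 the exon tile chr1:3347001-3348000 was at 70.1 points in the knockdown comparison, 71.9 points in the knockout comparison and 77.5 points in the mix, the closest match of its shared tiles. The exon tile beside it, chr1:3348001-3349000, was at 100 points in the knockdown comparison and -100 points in the knockout comparison, and was not listed in the mix. Adjacent windows of the same gene thus went the same way and opposite ways. KDM4B had such a tile in an exon as well, chr19:5131001-5132000, at 100 and -100 points. A KDM4B intron tile 158.38 kb downstream of the TSS was lower in both, at -33.7 and -73.3 points. In DOT1L the intron tile 2.57 kb downstream of the TSS was at -59.0 and -92.9 points.

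By gene, 23 members had a listed tile in both single comparisons (46.9%, against 37.1% of all protein-coding genes). A tile in the knockdown comparison and not in the knockout comparison was listed for 11 (22.4% against 23.2%; KMT2C, SETD1B, NSD3, SUZ12, SETDB2, SMYD2, KDM4A, KDM5B, KDM7A, KDM8 and JMJD6), and the reverse held for 6 (12.2% against 9.72%; KMT2D, SETD1A, SMYD1, KDM1A, KDM1B and KDM5A). SUV39H2, an H3K9 methyltransferase, was listed in the mix alone, at -29.4 points. No tile was listed in any table for 8 members (16.3%, against 29.5% of all protein-coding genes): SETD2, SETD7, EZH1, EZH2, EED, SETDB1, KDM3A and KDM4D. These include both catalytic subunits of PRC2 and SETD2, the enzyme of H3K36 trimethylation. Between 3 (KDM4D) and 21 (SETD2) of their tiles were reachable, and an unlisted tile may have differed by less than 25 points, missed the q-value limit or lacked reads.

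A further 53 genes of histone methylation (arginine methyltransferases, other PRDM, KMT5 and PHF genes and complex subunits) were counted in the same way. Of these, 40 had a listed tile in the knockdown comparison (75.5%), 28 in the knockout comparison (52.8%) and 23 in the mix (43.4%), against 60.3, 46.8 and 38.2% of all protein-coding genes. Promoter tiles were listed for 20 (37.7%), 7 (13.2%) and 12 (22.6%) of them, against 30.2, 14.2 and 15.2%. Their tiles were 51 positive and 60 negative in the knockdown comparison, 23 and 23 in the knockout comparison, and 12 and 24 in the mix. Over all listed tiles 64.7, 54.7 and 65.0% were positive in the same order. A positive share below that of all listed tiles was thus not particular to the members in the knockdown comparison and the mix. PRDM12, a PR domain gene of pain-sensing neurons, had the same tile over its TSS at 25 points in the knockdown comparison, 31.7 points in the knockout comparison and 32.1 points in the mix, and its other knockdown promoter tiles were at 35.8 and 45.3 points. At MECOM, the PRDM3 oncogene, the tile next to the canonical TSS was at -100 points in the knockdown comparison and -60.2 points in the mix, while the knockout comparison listed a tile at an alternative TSS at 31.2 points. PRDM13 had promoter tiles at -28.6, -40.4 and -27.7 points in the knockdown comparison, the knockout comparison and the mix, and PRDM14, a germ cell and pluripotency factor, had -66.1 and -41.4 points, 29.6 points and -26.4 points.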

How the data were processed

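RRBS was done on 1 library per SKOV3 clone. The extraction protocol names Trimmomatic, and the submitters' processing notes name Trim Galore 0.4.1, FastQC, Bismark 0.16.1, methylKit and hg19. The authors deposited, for each comparison, tiles of 1000 bp with a p-value, a q-value and a difference in percent methylation. These are the authors' own comparisons, used here because no value per library was provided, with no test added. The smallest coverage they accepted is not given in the sources used here. The tables were limited at a q-value of 0.01, stricter than the threshold of the paper's methods.

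The members and gene lists were chosen with earlier results of these data known. GENCODE release 44 lifted to GRCh37 gave the genes, and tiles were classed as promoter (within 2 kb of a basic TSS), body or flank. Tiles reachable by MspI fragments of 40 to 220 bp were computed from the genome. Genes were named by rule: per table the 6 members with the largest promoter difference, members with a tile in all tables, the 5 with most tiles, those with promoter tiles of opposite sign, and those with no tile. Others named were chosen after their values were seen. Counting was tested on simulated tiles. Python 3.11.15, pandas 2.3.3 and scipy 1.17.1 were used. Some fragment sequences are not reported here.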

Additional observations from a re-analysis of the deposited data

Results flagged for a closer look

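Of the 32 member tiles listed in both single comparisons, 14 had opposite signs, so that the E clone was higher in one pair and lower in the other. With 1 library per clone the difference between the pairs was not tested, and read the other way round, the knockout signs would make these the tiles of equal direction. At PRDM16 they were 10 tiles. In order along the gene, the knockdown and knockout differences were 100 and -27.7 points at 13.73 kb from the TSS, 34.7 and -34.6 points at 24.73 kb, and 99.5 and -44.9 points at 131.73 kb. Further on they were -27.7 and 55.5 points at 172.73 kb, 37.8 and -27.2 points at 286.73 kb, and -39.8 and 50.0 points at 305.73 kb. Near the gene end they were 50.0 and -49.1 points at 349.73 kb, 29.6 and -49.3 points at 350.73 kb, 100 and -100 points at 362.73 kb, and 80.1 and -28.9 points at 372.73 kb. The knockdown difference was the positive one in 8 of the 10. KDM4B had -50.0 and 29.2 points at 6.38 kb and 100 and -100 points at 162.38 kb from its TSS. At SMYD3 the knockdown was the lower one, with -50.0 and 37 points at 32.08 kb and -100 and 25.2 points at 16.08 kb.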

How the results depend on the processing

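Of 135 values recomputed under other settings, 110 stayed within 1.5 times the reported count or within the 95% interval of the reported share or median. No value moved when the span was not extended or was extended by 10 kb, under a q-value limit of 1e-05, with tiles of other genes left out, with fragments of 20 to 300 bp, with JARID2 among the writers, or with the canonical TSS alone (a setting chosen after seeing the data). Without PRDM16 the positive share of member tiles moved from 65.4 to 36.8% (knockdown) and from 65.9 to 39.0% (mix), that of body tiles from 74.0 to 43.4% and from 71.0 to 41.4%, and that of PRDM tiles to 25% in both. Tiles in both single comparisons fell to 12. Counted over genes by their median tile, 32.4% (knockdown) and 32.0% (mix) were positive. At 50 points or more, the tiles numbered 104, 49 and 27 in the knockdown, knockout and mix tables, with medians of 75.8, 62.3 and 58.8 points. There, 22 genes had a knockdown tile and 14 a mix tile, 9 and 2 had a promoter tile, 5 tiles were in both single comparisons, and the positive share of knockout writer tiles was 27.3%. Promoters within 1 kb gave 3 genes in the knockout comparison, and those within 5 kb gave 13 there and 10 in the mix. Counting the same or a neighbouring tile gave 65 shared tiles. No paired analysis was possible because each clone had 1 library and the tables hold no value per library. Coverage could not be varied.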

Other observations

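Mix values did not always lie between those of the single comparisons. Of the 17 member tiles listed in all tables, 3 lay outside that range, at KDM3B (-72.6 points, with -64.0 and -50.0) and at PRDM16 (61.8 points, with 48.5 and 34.9, and 77.5 points, with 70.1 and 71.9). Over all 4250 such tiles of the genome 913 did (21.5%). At the KDM6B exon tile the mix difference was 100 points, equal to the knockdown, although the knockout difference was 47.8 points. SUV39H2 was listed in the mix and in neither single comparison.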
